A study of Mus musculus with 16 samples.

Results

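The comparison described here set 4 mice of the 3xTg strain that received the stearoyl-CoA desaturase (SCD) inhibitor CAY10566 (3xTg-S) against 4 that received vehicle (3xTg-D). They were 8 of the 16 mice of the series and were chosen by their genotype and treatment labels. The other 8 were strain controls given vehicle (WT-D, 4 mice) or inhibitor (WT-S, 4 mice), and are used only where named. It asks what inhibition of SCD in the brain did to hippocampal gene expression in a mouse model of Alzheimer's disease.

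The 3xTg mice carry mutant human APP and tau transgenes, driven by a Thy1.2 element that acts mainly in neurons, on a further knock-in allele, and the WT strain is labelled C57BL/6J x 129S1. All 16 mice were female, carried a brain cannula and an osmotic pump for 28 days, and were 10 months old at dissection. The pumps of 3xTg-S held the inhibitor at 80 µM in artificial cerebrospinal fluid with 0.8% DMSO, and those of 3xTg-D held the fluid and DMSO alone. The titles and treatment labels name the Cayman product, while the treatment protocol shared by the samples names the inhibitor by a product of another supplier, ab142089. The whole hippocampus was sequenced as bulk mRNA, so fewer cells of a type and less RNA per cell cannot be told apart.

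SCD places a double bond in saturated fatty acyl-CoA and so makes the monounsaturated fatty acids of membranes, triglycerides and cholesteryl esters. In mice Scd1 and Scd2 are the main forms in brain, and oligodendrocytes, which wrap axons in lipid-rich myelin, use much of this fat. Ependymal cells line the ventricles with motile cilia, microglia clear debris and astrocytes supply neurons with fuel and take up glutamate.

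Reads assigned to genes numbered 18056497 to 23590149 in the 3xTg-D mice and 15413385 to 22098297 in the 3xTg-S mice. Reads that overlapped no gene made up 8.79% to 11.3% and 7.82% to 15.1% of the uniquely mapped reads. Mouse 2 of each group stood apart on the first principal component of the 8 mice, which held 41.0% of the variance: 3xTg-D2 lay at -36.6 and 3xTg-S2 at -35.3, and the other 6 mice lay between -5.33 and 35.6. The defining neuronal markers Rbfox3, Snap25 and Syt1 were expressed in all 8 mice, and of 11 T cell markers 9 were too low to be tested, Cd3e among them. The deviations of same-numbered mice from their group means correlated at 0.0159, 0.392, 0.0646 and 0.382 over genes, against a mean of -0.0657 between mice of different numbers. In the WT mice the same-numbered pairs correlated at 0.114, 0.205, 0.208 and 0.339, against a mean of -0.0727 between different numbers. Of the 4 pairs in 3xTg, 2 exceeded 0.1, and no label ties the numbers to a cage, day or batch. The numbers were therefore not taken as pairs, and the fit with the replicate number as a block is given beside the fit without it.

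Of 16475 tested genes, 149 were differentially expressed genes (DEGs, unadjusted p of 0.01 or less) without the block, 0.904% of the genes, with 0.279% higher and 0.625% lower in 3xTg-S. After Benjamini-Hochberg adjustment of the edgeR quasi-likelihood p-values, none reached 0.05 or less (the smallest was 0.722), so no fold change without the block passed that correction. The share called, 0.904%, was no larger than a threshold of 0.01 would give on average for unchanged genes. Single calls without the block are therefore uncertain. At a looser limit of 0.05 without adjustment, 1043 genes passed. With the block, 1133 genes were DEGs (6.88%, with 4.17% higher and 2.71% lower) and 204 of them (1.24%) had an adjusted p of 0.05 or less. That count rested on single mice and settings: it was 20 without both mice numbered 1, 679 without number 2, 0 without number 3 (edgeR, 2073 at an unadjusted 0.05) and 4 without number 4, 372 with DESeq2, and 0 in a block fit of all 16 mice (edgeR, smallest adjusted p 0.0915, 2562 at an unadjusted 0.05). The block fit called 139 of the 149 genes. Every 3xTg-S mouse lay above every 3xTg-D mouse for 1.4% of the tested genes and below every one for 1.76%. An unchanged gene would separate in either direction with a probability of 0.0286 if group labels were shuffled among the mice. These shares are near that, so a lack of overlap alone says little about a gene. Values below are log2 fold changes of 3xTg-S over 3xTg-D with their standard errors (SE), and levels are CPM, read counts scaled to a common library size by the trimmed mean of M values.

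The block calls moved with transcript length. Sorted into 10 groups by exon length, the tested genes had a median log2 fold change of -0.10 in the shortest group (57 to 1497 bp) and 0.13 in the longest (9612 to 123179 bp) without the block. Of the 140 genes that were higher with the block at an adjusted p of 0.05 or less, 98 were in the longest group. Slopes were taken on log2 CPM minus each gene's mean over the 8 mice. Per doubling of exon length these deviations changed by -0.0244 ± 0.0451 (SD, n = 4) in 3xTg-D. In 3xTg-S they changed by 0.0244 ± 0.0306 (SD, n = 4). The group means mirror each other by construction, so only their difference is informative. The slopes of the groups differed by 0.0488, which did not pass a two-sided exact permutation test over the mice (p = 0.143, 70 arrangements, smallest possible 0.0286). The WT mice differed by -0.00855 (exact permutation p = 0.8). Within numbers 1 to 4 the inhibitor slope was always higher: 0.0184 against -0.0286, -0.0149 against -0.0847, 0.0371 against -0.00555 and 0.057 against 0.0213. A two-sided exact permutation test that swapped mice only within numbers gave p = 0.125 (16 arrangements, smallest possible 0.125). With so few arrangements that test could not reach 0.05. In the WT mice the same exact permutation test gave p = 0.75. A further fit removed each mouse's own trend with exon length by an offset and kept the block. It called 672 genes (4.08%, with 1.72% higher and 2.36% lower), of which 533 were also called with the block alone, and none had an adjusted p of 0.05 or less. Below, "with the offset" means this last fit.

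**Figure D1:**
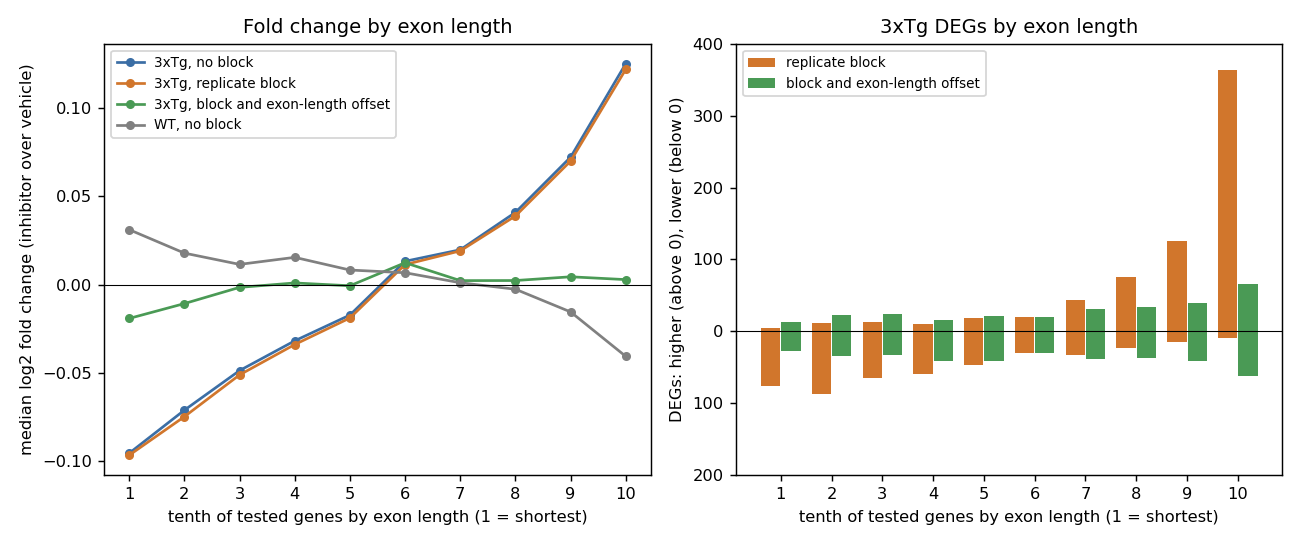
Left, median log2 fold change (inhibitor over vehicle, y axis) of the tested genes in 10 groups of rising exon length (x axis) for the 3xTg comparison without the block, with the block, and with block and exon-length offset, and for the WT comparison without the block. Right, number of 3xTg DEGs higher (above 0) and lower (below 0) in each group of exon length, with the block and with block and offset. The 3xTg medians run from -0.10 to 0.13, the WT medians slope slightly the other way, and the peak of higher DEGs in the longest group shrinks under the offset.

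No desaturase passed the test in 3xTg-S. Scd2, the main brain form, was at 1454, 1518, 1490.0 and 1363 CPM in the 4 vehicle mice and 1333, 1499, 1324 and 1208 CPM in the 4 inhibitor mice. Scd1 was at 162, 171, 158 and 139.5 CPM and 155, 171, 139 and 125 CPM. The ranges of the groups overlapped for both genes. The log2 fold changes without the block were -0.10 ± 0.10 (SE) for Scd1, -0.12 ± 0.08 for Scd2 and -0.10 ± 0.17 for Scd3, and none of the 3 was a DEG in any of the 3 fits. Scd4 was below the filter, with 3 to 8 reads in the vehicle mice and 0 to 7 in the inhibitor mice.

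Among lipid genes, no enzyme of sterol synthesis passed and a small group of lipogenic regulators fell with the block. None of the 24 tested genes of cholesterol synthesis was a DEG in any of the 3 fits (median log2 fold change -0.01 without the block), and Hmgcs1, which makes the precursor of mevalonate, stood at -0.03 ± 0.10. Of 20 lipogenic genes, 4 fell with the block (none without it): Mid1ip1, Thrsp, Gpam and Srebf1. Mid1ip1 activates acetyl-CoA carboxylase, Gpam begins glycerolipid synthesis, and Srebf1 is the transcription factor of the pathway. Mid1ip1 was at 79.2, 95.5, 77.1 and 70.5 CPM in 3xTg-D and 66.0, 75.7, 61.5 and 55.2 CPM in 3xTg-S. Of the inhibitor mice only 3xTg-S2 lay within the range of the vehicle mice. Its log2 fold change was -0.32 ± 0.05 with the block (adjusted p = 0.0269) and -0.26 with the offset. The same 4 genes were DEGs with the offset.

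Plin3, a coat protein of lipid droplets, was at 23.3, 26.7, 22.4 and 19.9 CPM in 3xTg-D and 16.9, 19.4, 15.5 and 12.998 CPM in 3xTg-S. Every inhibitor mouse lay below every vehicle mouse. It fell by 0.51 ± 0.13 on the log2 scale without the block and was 1 of 21 lipid droplet genes that did so. Among 18 acyl-CoA synthetase and uptake genes, Acsf2 fell without the block (10.1, 11.1, 9.28 and 10.3 CPM against 8.49, 8.005, 7.76 and 7.55 CPM, log2 fold change -0.36 ± 0.10), again with no overlap, and Dbi, which carries acyl-CoA, and the synthetase Acsbg1 fell with the block. Of 26 genes of fatty acid oxidation, 3 fell with the block and 4 with the offset, and the mitochondrial enzymes Hadh and Acads were in both sets (-0.30 and -0.55 with the block). Their list had a median of -0.15 without the block, against 0.01 over all genes tested, and 21 of its 26 genes were below 0. Pltp, a transfer protein for phospholipids, is outside the lists. It was chosen as the lower gene of at least 1 CPM with the smallest p without the block. Its levels were 29.0, 28.5, 28.0 and 29.7 CPM against 24.2, 20.7, 20.98 and 23.5 CPM. The groups did not overlap, and Pltp fell by 0.37 ± 0.07 on the log2 scale without the block and by as much with it (adjusted p = 0.0351).

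Myelin genes were lower in the inhibitor mice. All 16 tested markers of mature oligodendrocytes had a negative log2 fold change, with a median of -0.36, and 5 were DEGs without the block: Trf, Cnp, Mag, Fa2h and Cldn11. In 4 of the 16 no inhibitor mouse reached the vehicle range, against 1.76% of all tested genes. With the block 10 of 16 fell (4 at an adjusted p of 0.05 or less), and with the offset 12 fell. The summed level of the list was 7497, 7724, 6645 and 7233 CPM in the vehicle mice and 5732, 7744, 5107 and 5088 CPM in the inhibitor mice. Mouse 3xTg-S2 lay just above the highest vehicle mouse, and the other 3 inhibitor mice lay below every vehicle mouse.

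Trf, the iron carrier transferrin, which oligodendrocytes make in the brain (chr9:103204001-103230444), was at 329, 297, 254 and 318 CPM in 3xTg-D and 234, 238, 188 and 189.7 CPM in 3xTg-S. Every inhibitor mouse, 3xTg-S2 included, lay below every vehicle mouse. Trf fell by 0.49 ± 0.11 on the log2 scale without the block, by 0.50 ± 0.07 with it (adjusted p = 0.0247) and by 0.47 with the offset. Cnp, a myelin enzyme (chr11:100574904-100591729), was at 285, 231, 232 and 232 CPM and 190.5, 214, 154 and 164 CPM, with no overlap and a log2 fold change of -0.44 ± 0.11. Mag, an adhesion protein of the innermost myelin layer, was at 128, 87.5, 97.9 and 109.6 CPM and 79.5, 83.6, 68.5 and 83.5 CPM, again with no overlap (-0.42 ± 0.11). Fa2h, which hydroxylates the fatty acids of myelin galactolipids, was at 30.0, 22.5, 21.4 and 30.1 CPM and 21.4, 20.2, 17.5 and 19.6 CPM (-0.40 ± 0.13). Its highest inhibitor mouse reached the lowest vehicle mouse.

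Mbp, a structural protein of compact myelin, was less separated. It was at 2567, 2999, 2207 and 2577 CPM in 3xTg-D and 1872, 2839, 1922 and 1702 CPM in 3xTg-S. Mouse 3xTg-S2 was among the vehicle values, and the other 3 inhibitor mice were below all 4. Mbp had a log2 fold change of -0.31 ± 0.16 without the block and fell by 0.33 ± 0.10 with it (adjusted p = 0.109). Opalin, a membrane protein of oligodendrocytes, had the largest fold change of the list but also the largest spread: 21.2, 17.2, 10.9 and 10.3 CPM against 14.4, 10.5, 3.59 and 9.55 CPM, -0.65 ± 0.35 without the block, where it did not pass.

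Further genes known from oligodendrocytes were among the 149 DEGs, named here after their values were seen: the receptors Gpr37 and S1pr5, Padi2, which citrullinates myelin basic protein, the transcription factors Sox8 and Nkx6-2, Prr18, Klk6 and Cmtm5. All 8 fell, by 0.26 (Sox8) to 1.97 (Klk6) on the log2 scale without the block. They were picked from the DEGs, of which 103 were lower, so they give no separate support to the marker list. Padi2 was at 48.7, 60.6, 43.2 and 46.1 CPM and 39.5, 39.0, 35.2 and 32.3 CPM. Sox8 was at 41.8, 41.4, 41.8 and 42.4 CPM and 32.8, 38.3, 35.5 and 32.7 CPM. Neither gene overlapped between the groups. Of the 14 markers of precursors and newly formed oligodendrocytes, Enpp6, which marks newly formed cells, fell without the block (13.997, 17.1, 10.5 and 18.02 CPM against 10.4, 8.20, 11.1 and 6.74 CPM, -0.72 ± 0.19), and Bcas1 joined it with the block. The list's median was -0.08.

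The number of mature oligodendrocyte DEGs depended on single mice. Leaving out 1 mouse gave 2 (without 3xTg-D1 or 3xTg-S3) to 11 of 16 (without 3xTg-S2), and 3 without 3xTg-D4, 3xTg-S1 or 3xTg-S4. The count was 13 when both mice numbered 2 were left out. With the offset, leaving out number 1, 2, 3 or 4 gave 6, 15, 8 and 6. In the WT mice none of the 16 was a DEG (0.188% of all tested genes were), with a median of -0.13, and none was a DEG of the genotype by inhibitor interaction (0.595% of all genes).

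**Figure D2:**
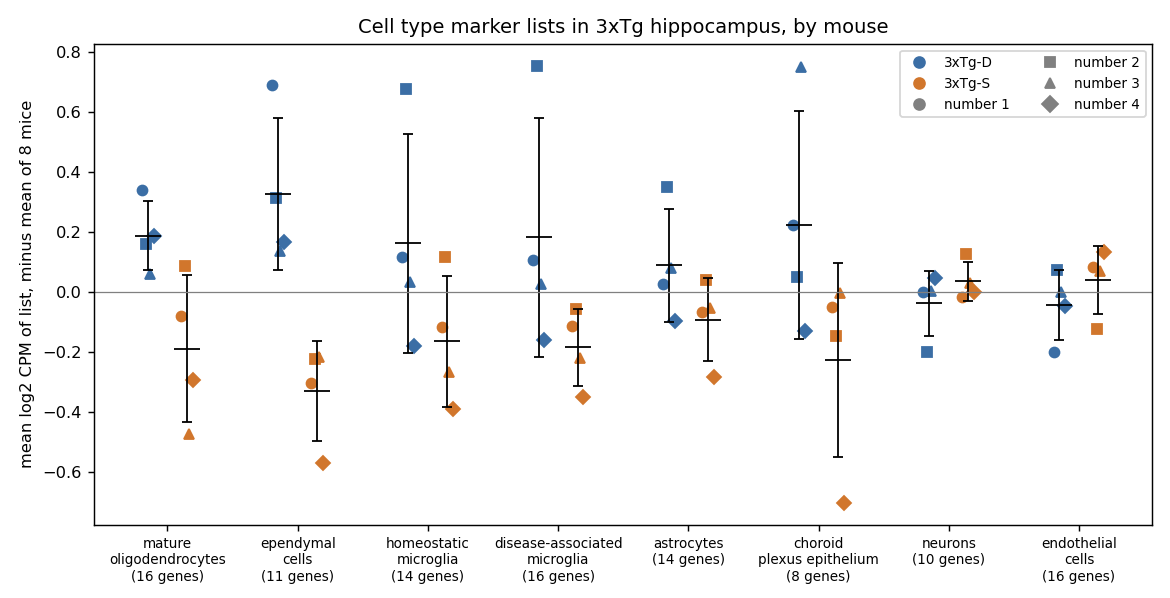
Mean log2 CPM of the tested genes of 8 cell type marker lists in each mouse, minus the mean of the 8 mice (y axis, log2 units), for vehicle (3xTg-D) and inhibitor (3xTg-S) mice, with symbols for the mouse number. Black bars give the group mean and SD (n = 4). The ependymal list separates the groups without overlap, 3xTg-D2 stands high in both microglial lists, and neurons and endothelial cells lie near 0.

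Genes of ependymal cells were lower still. All 11 tested markers had a negative log2 fold change, with a median of -0.71, and 6 were DEGs without the block: Ccdc153, Rarres2, Foxj1, Rsph1, Cfap126 and Sntn. The same number fell with the block (1 at an adjusted p of 0.05 or less) and 5 fell with the offset. The summed level of the list was 40.9, 31.6, 29.7 and 29.3 CPM in 3xTg-D and 21.7, 21.6, 22.8 and 18.8 CPM in 3xTg-S. Every inhibitor mouse lay below every vehicle mouse, and 3xTg-S2 was not apart. Leaving out 1 mouse gave 2 (without 3xTg-D1) to 7 DEGs (without 3xTg-D4), and 4 without 3xTg-S1, 3xTg-S3 or 3xTg-S4. With the offset, leaving out number 1, 2, 3 or 4 gave 2, 5, 2 and 3.

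Ccdc153, a cytoplasmic marker of ciliated ependyma (chr9:44240676-44247306), was at 6.04, 3.90, 4.19 and 3.54 CPM in 3xTg-D and 2.42, 2.67, 2.63 and 1.73 CPM in 3xTg-S. The groups did not overlap. It fell by 0.90 ± 0.21 on the log2 scale without the block and by 0.88 ± 0.18 with it (adjusted p = 0.0425). Foxj1, the transcription factor that switches on motile cilia, was at 7.14, 5.15, 5.57 and 4.57 CPM and 2.87, 4.10, 3.53 and 3.61 CPM (-0.66 ± 0.17). Sntn, a protein of the ciliary tip, was at 1.37, 1.01, 0.689 and 0.653 CPM and 0.196, 0.524, 0.385 and 0.378 CPM (-1.28 ± 0.36). Neither overlapped between the groups, and the levels of Sntn are close to the filter on low counts.

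Other genes of the motile axoneme, chosen after their values were seen, were among the DEGs without the block and all were lower: Dnali1 and Tekt1, structural proteins of the axoneme, Spag16, a part of its central apparatus, Ak7, its adenylate kinase, and Ccdc146, Cfap161, Lrrc23, Fam216b, Wdr49 and Ccdc33. Their log2 fold changes ran from -1.35 (Ccdc146) to -0.67 (Tekt1). All but Wdr49 were DEGs with the block too, as were 139 of the 149 DEGs. Picked from the DEGs, these genes give no separate support to the marker list. Ak7 was at 6.31, 3.39, 4.82 and 4.03 CPM and 3.00, 2.10, 2.502 and 2.53 CPM. Spag16 was at 1.48, 1.22, 1.64 and 1.20 CPM and 0.523, 0.619, 0.770 and 0.485 CPM. Neither overlapped between the groups. In the WT mice the ependymal list had a median of -0.12 and no DEG, and the inhibitor effect differed between genotypes at p of 0.01 or less for Sntn (interaction -1.60) and Spag16 (-1.10), neither at an adjusted p of 0.05 or less.

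Regulatory factor X (RFX) proteins bind X-box motifs in promoters of ciliary genes and act with FOXJ1. Promoters of 3 ciliary genes that fell are shown as examples, picked by no set rule. All 3 hold the motif core, which says nothing about the other genes that fell. Other ciliary genes fell too, and shared control was not tested. They are RefSeq sequences of GRCm38.p6 from 250 bases before to 50 after the start site, 5′ to 3′ on the gene's strand, and capitals mark the X-box core GTTGCC or its reverse complement GGCAAC. They are Ccdc153 at chr9:44240427-44240726 (+), Sntn at chr14:13670626-13670925 (+) and Spag16 at chr1:69826720-69827019 (+).
Ccdc153: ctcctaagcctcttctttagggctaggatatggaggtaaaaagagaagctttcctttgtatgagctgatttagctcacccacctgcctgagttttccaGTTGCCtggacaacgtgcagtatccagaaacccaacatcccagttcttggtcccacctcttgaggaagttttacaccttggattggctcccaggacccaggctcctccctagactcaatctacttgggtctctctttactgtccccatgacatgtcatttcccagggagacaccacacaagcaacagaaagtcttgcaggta
Sntn: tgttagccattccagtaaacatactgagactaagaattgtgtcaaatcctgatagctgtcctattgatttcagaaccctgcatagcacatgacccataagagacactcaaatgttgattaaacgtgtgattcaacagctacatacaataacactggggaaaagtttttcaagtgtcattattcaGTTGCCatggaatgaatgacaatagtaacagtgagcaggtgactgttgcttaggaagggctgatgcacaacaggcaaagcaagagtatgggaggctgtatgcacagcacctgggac
Spag16: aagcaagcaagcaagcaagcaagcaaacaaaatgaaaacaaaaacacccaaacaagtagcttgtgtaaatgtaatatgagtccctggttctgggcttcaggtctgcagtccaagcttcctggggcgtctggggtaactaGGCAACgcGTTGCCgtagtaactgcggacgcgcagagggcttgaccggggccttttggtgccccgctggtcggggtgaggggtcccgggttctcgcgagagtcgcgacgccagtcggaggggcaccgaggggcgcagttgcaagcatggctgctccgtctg
The core began 152 bases before the start site in Ccdc153 and 66 before it in Sntn, and Spag16 held both strands of it side by side at 111 and 103 bases before. Of the 10 ependymal markers with an entry, which do not include Spag16, 4 held the core (40.0%), against 3423 of 27025 genes (12.67%). A match of these letters is a description and not a bound site.

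**Figure D3:**
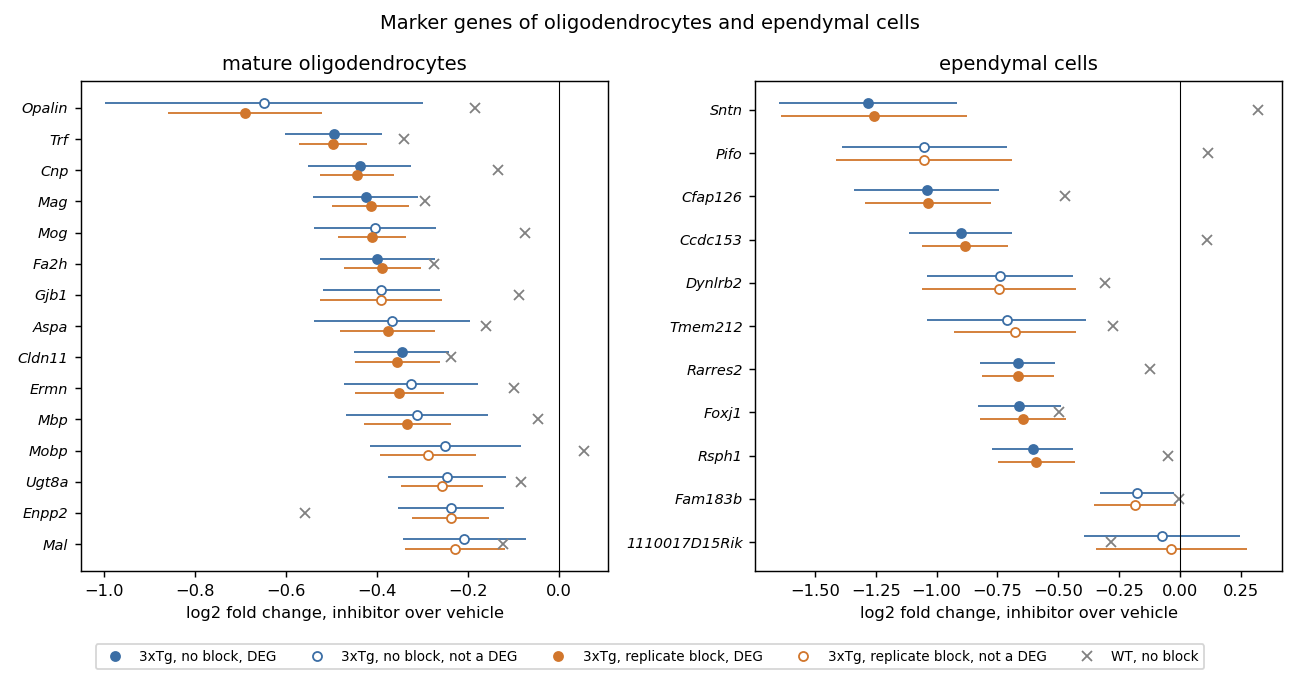
Log2 fold change (inhibitor over vehicle, x axis) with its SE for 15 of the 16 tested markers of mature oligodendrocytes (left) and all 11 of ependymal cells (right) in the 3xTg comparison without and with the replicate block. Filled points are DEGs at an unadjusted p of 0.01 or less, and crosses give the WT comparison without the block. All markers shown lie below 0 in the 3xTg mice.

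Choroid plexus, which also lies in the ventricles, was present in trace and varied between mice. Its defining markers Ttr and Folr1 stayed low in all 8. Of its 12 markers 8 were tested, and their summed level was 39.1, 40.4, 57.7 and 38.2 CPM in 3xTg-D and 40.0, 44.4, 40.5 and 38.7 CPM in 3xTg-S. Folr1 reached at most 0.659 CPM in any of the 8 mice and was 0 in 3xTg-S4. The mean log2 CPM of the list was 1.29, 1.12, 1.82 and 0.94 in 3xTg-D and 1.02, 0.92, 1.07 and 0.37 in 3xTg-S, so the inhibitor mice tended lower. Calml4, the only choroid plexus DEG, was at 1.54, 1.30, 1.70 and 1.09 CPM and 0.719, 0.381, 0.577 and 0.539 CPM without overlap (-1.35 ± 0.27). Ttr, its most abundant transcript, was at 3.84, 4.86, 13.3 and 1.36 CPM and 4.12, 5.05, 1.73 and 0.755 CPM with no separation. With this score as a covariate, 1 of 11 ependymal (median -0.70) and 3 of 16 oligodendrocyte markers (median -0.35) were DEGs without the block, among 53 DEGs in all. With the score and the block together the counts were 1 and 0, and the medians -0.95 and -0.10. The score includes Calml4 and was lower in the inhibitor mouse of every number. It therefore overlaps with treatment, and these fits cannot fully separate them. The part of choroid plexus in the ependymal and oligodendrocyte differences was not tested.

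Microglial markers all had negative values without the block, and no more than 1 passed there. No homeostatic microglial marker of 14 and 1 disease-associated marker of 16 (Clec7a) was a DEG without the block. With the block 10 of 14 and 8 of 16 fell, and with the offset 10 and 7 did. A block fit of all 16 mice left 1 and 3, and the block without both mice numbered 2 left 6 and 5. The medians were -0.35 and -0.34 without the block. The summed level of the homeostatic list was 616, 918, 590.2 and 511 CPM in 3xTg-D and 538, 629, 487 and 428 CPM in 3xTg-S. Mouse 3xTg-D2 was far above the rest and 3xTg-S2 was the highest of its group, and the groups overlapped. Without 3xTg-D2 the medians were -0.13 and -0.18.

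Cx3cr1, the fractalkine receptor of microglia, had a log2 fold change of -0.32 ± 0.17 without the block and -0.30 ± 0.06 with it (adjusted p = 0.0448), and the purinergic receptor P2ry13 had -0.46 ± 0.16 and -0.48 ± 0.09 (adjusted p = 0.0351). Among disease-associated markers Cd9, a tetraspanin, was at 38.1, 52.1, 38.0 and 28.7 CPM and 32.3, 32.9, 24.7 and 22.9 CPM. Mice 3xTg-S1 and 3xTg-S2 lay within the vehicle range and the other 2 inhibitor mice below it. Cd9 fell by 0.47 ± 0.08 with the block (adjusted p = 0.0309), and the receptor Trem2 by 0.50 ± 0.12 (adjusted p = 0.0617). Clec7a, a receptor for glucans, was at 1.81, 5.62, 1.80 and 1.63 CPM and 1.18, 1.24, 0.898 and 1.02 CPM, with the high value in 3xTg-D2 again (-1.34 ± 0.42).

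Of 14 complement genes, C3, the central component, fell without the block. It was at 4.67, 5.62, 2.33 and 5.39 CPM in 3xTg-D and 2.48, 1.33, 1.80 and 0.755 CPM in 3xTg-S. The highest inhibitor mouse was just above the lowest vehicle mouse, and the other 3 were below all 4. C3 fell by 1.52 ± 0.35 on the log2 scale without the block, and by as much with the block (adjusted p = 0.0469). In WT its value was -1.80 ± 0.97, which did not pass. With the block C1qa, C1qb and C4b also fell, and with the offset C4b was left beside C3.

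Antigen presentation and interferon genes stood high in single mice, and none passed. No gene of MHC class I (16 tested), MHC class II (6), the interferon response (24) or inflammatory cytokines (18) was a DEG in any of the 3 fits. B2m, the light chain of MHC class I, was at 88.2, 229, 74.9 and 80.2 CPM in 3xTg-D and 146, 83.2, 76.9 and 67.8 CPM in 3xTg-S. Cd74, the class II invariant chain, was at 1.15, 21.5, 1.11 and 1.31 CPM and 3.33, 1.38, 5.39 and 0.701 CPM. Both were highest in 3xTg-D2, and 3xTg-S1 was second for B2m. In the WT comparison the class II genes H2-Aa (-4.23 ± 1.34) and H2-Ab1 (-4.56 ± 1.43) were lower at the same unadjusted threshold, but mouse WT-D1 stood apart: its summed class II level was 259 CPM, against 12.7 to 16.8 CPM in the other 3 WT-D mice and 10.7 to 15.1 CPM in the WT-S mice.

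Astrocyte markers were lower in part. None of the 14 was a DEG without the block, 3 fell with it (Gfap, S100b and Sox9) and 5 with the offset, where Gja1 and Slc1a3 were added, and the list's median was -0.17. Gfap, the filament of astrocytes, was at 615, 1117, 617 and 498 CPM in 3xTg-D and 523, 601, 419 and 377 CPM in 3xTg-S. The vehicle mouse 3xTg-D2 was the highest of the 8, and each inhibitor mouse was below the vehicle mouse of its number. Gfap had a log2 fold change of -0.57 ± 0.23 without the block and fell by 0.52 ± 0.10 with it (adjusted p = 0.0373). S100b, a calcium-binding protein, fell by 0.38 ± 0.05 with the block (adjusted p = 0.0247). The main glutamate transporter Slc1a2 stood at -0.05 ± 0.08. Outside the astrocyte list, Slc38a3, a glutamine transporter, was at 45.4, 45.0, 41.1 and 40.1 CPM and 35.7, 31.4, 34.8 and 34.7 CPM, and Il33, an alarmin of glia, at 84.5, 86.7, 83.3 and 74.1 CPM and 63.4, 69.6, 49.7 and 56.7 CPM. Neither overlapped between the groups, and both fell without the block (-0.33 ± 0.07 and -0.46 ± 0.10). The effect on Slc38a3 differed between genotypes at an unadjusted p of 0.01 or less (interaction -0.34), and in WT it was 0.01.

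No list of neuronal identity genes held a DEG without the block. None of the 10 general neuronal markers, 9 markers of CA3, 12 of dentate granule cells or 15 of interneurons passed there, nor did the 9 of CA1. Of the interneuron markers 2 rose with the block and none passed with the offset, and of the CA1 markers 2 rose in both fits, Gpr161 among them (0.32 with the block). The vesicle protein Snap25 was at 2284, 2058, 2287 and 2327 CPM and 2331, 2652, 2240.2 and 2186 CPM (0.07 ± 0.08). Of 16 endothelial markers Flt1 rose with the block and none was a DEG with the offset. Thy1, Mapt and App, taken as checks of the transgenic background, had log2 fold changes between -0.03 and 0.06, and among 30 genes of APP processing and Alzheimer's risk only Clu, a chaperone of lipoproteins, fell with the block (-0.30 ± 0.08) and with the offset.

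Nr4a2, a nuclear receptor induced by neuronal activity (chr2:57106830-57124003), was the 1 immediate early gene of 24 that rose without the block. It was at 41.9, 47.4, 50.9 and 57.8 CPM in 3xTg-D and 57.8, 67.8, 59.0 and 66.5 CPM in 3xTg-S. The lowest inhibitor mouse equalled the highest vehicle mouse to 3 digits. Nr4a2 rose by 0.34 ± 0.10 without the block, by 0.35 ± 0.07 with the block (adjusted p = 0.0396) and by 0.36 with the offset. Without the block the call was lost when 3xTg-D1, 3xTg-D2, 3xTg-D3, 3xTg-S2 or 3xTg-S4 was left out (0.27 to 0.36), and with the block it passed without any 1 number. It stood at -0.10 in WT, and the interaction was 0.44, which passed at the unadjusted threshold. Its relative Nr4a3 and the AP-1 gene Fosl2 rose with the block (0.20 and 0.28) but not with the offset, and the rapid genes Fos, Arc and Egr1 had values of 0.10, 0.30 and 0.15 and were not DEGs. Cyclic AMP drives many of these genes through response elements whose core is TGACG. The promoter of Nr4a2 (RefSeq, GRCm38.p6, chr2:57123954-57124253, - strand) is shown because it is the gene of this class that passed, with TGACG or its reverse complement CGTCA in capitals.
Nr4a2: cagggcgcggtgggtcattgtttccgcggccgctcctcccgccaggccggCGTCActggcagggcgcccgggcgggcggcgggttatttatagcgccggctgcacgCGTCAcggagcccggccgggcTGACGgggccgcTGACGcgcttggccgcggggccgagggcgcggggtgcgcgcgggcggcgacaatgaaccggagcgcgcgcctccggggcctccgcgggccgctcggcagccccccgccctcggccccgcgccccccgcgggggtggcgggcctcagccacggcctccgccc
The 4 matches began 200, 144, 123 and 111 bases before the start site. Of 20 immediate early genes with an entry 13 held the core, against 21.02% of 27025 genes.

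**Figure D4:**
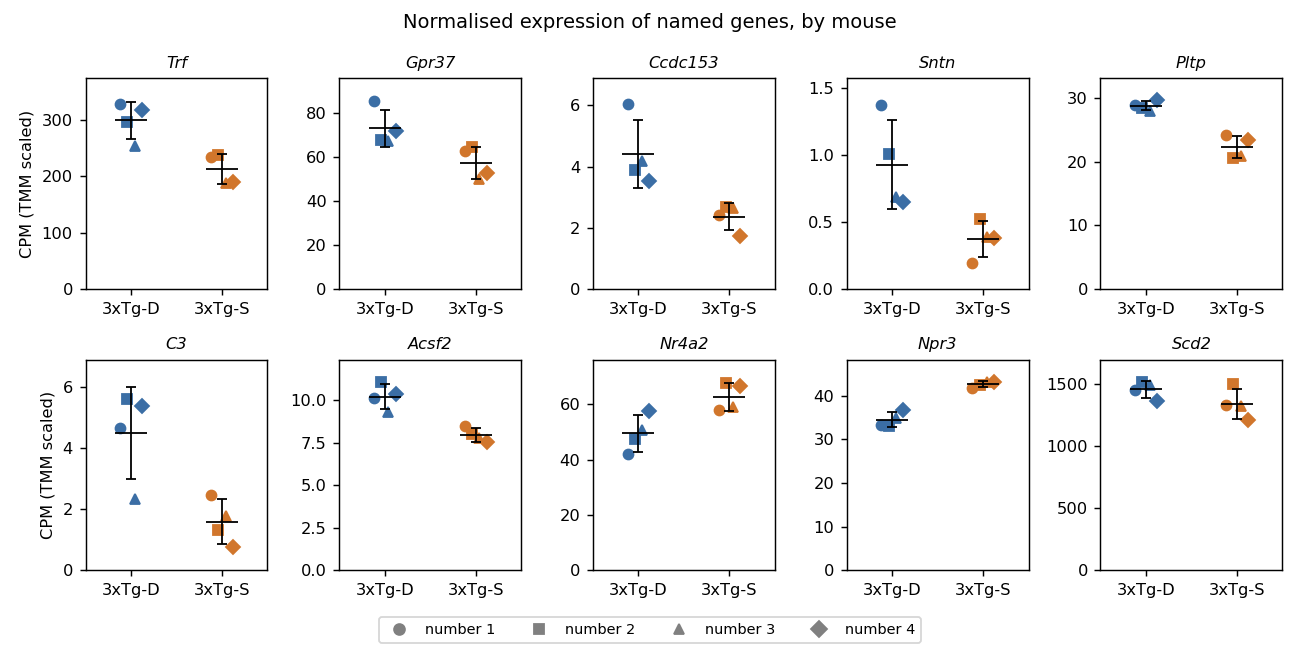
Level (CPM, y axis from 0) of 10 genes named in the text in each vehicle (3xTg-D) and inhibitor (3xTg-S) mouse, with symbols for the mouse number and bars for the group mean and SD (n = 4). Trf, Ccdc153, Sntn, Pltp, Acsf2 and Npr3 do not overlap between the groups, and Scd2 does.

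Genes of excitability and of chromatin were higher with the block, and fewer were called with the exon-length offset. Of 23 potassium channel genes 1 rose without the block, 11 with it and 5 with the offset. Of 29 sodium, calcium and HCN channel genes none rose without the block, 13 with it and 4 with the offset. The numbers were 0, 17 and 3 for 35 chromatin regulators, 0, 6 and 3 for 24 glutamate receptors, 0, 5 and 3 for 30 genes of vesicle release, 1, 7 and 2 for 30 synaptic adhesion genes and 0, 9 and 2 for 40 axon guidance genes, where Sema6d and Ephb1 fell with the offset. The median exon length was 14158 bp for chromatin regulators, 9942 bp for sodium, calcium and HCN channels and 4192 bp over all tested genes.

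Bsn and Pclo, giant scaffolds of the presynaptic active zone, rose by 0.45 and 0.50 with the block and by 0.31 and 0.32 with the offset. Pclo shows the pattern by mouse: it was at 274, 141, 307 and 321 CPM in the vehicle mice and 378, 209, 378 and 511 CPM in the inhibitor mice. Both mice numbered 2 were the lowest of their group, the groups overlapped, and within each number the inhibitor mouse was the higher. Of the chromatin regulators, the histone methyltransferases Kmt2a and Kmt2d remained DEGs with the offset, at 0.32 and 0.31.

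Some genes of ribosomes and of nuclear-encoded mitochondrial subunits fell with the block. Of 80 cytosolic ribosomal protein genes none fell without the block, 20 fell with it (4 at an adjusted p of 0.05 or less) and 9 with the offset, and the list's median went from -0.20 without the block to -0.13 with the offset, and was 0.11 in WT. Without 3xTg-D2 the median was -0.10 without the block. Rplp0, of the ribosomal stalk, fell by 0.36 ± 0.06 with the block and by 0.29 with the offset. Of 93 nuclear-encoded subunits of oxidative phosphorylation 12 fell with the block and 1, Uqcr11, with the offset. Of 8 mitochondrially encoded subunits none passed in any of the 3 fits (median -0.02 with the block and 0.05 with the offset). Antioxidant genes of the NRF2 list fell in 8 of 22 cases with the block and 4 with the offset, with Mt2, a metallothionein, at -0.47 and -0.39 and Nqo1, a quinone reductase, at -0.54 and -0.47. Of 26 lysosomal genes 6 fell with the block and 8 with the offset, among them Ctsd and the cholesterol carrier Npc2 (-0.27 with the offset). Among 23 stress response genes, Hspa5, the main chaperone of the endoplasmic reticulum, rose with the block (0.26 ± 0.07) and the offset, where Pdia4 joined it.

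**Figure D5:**
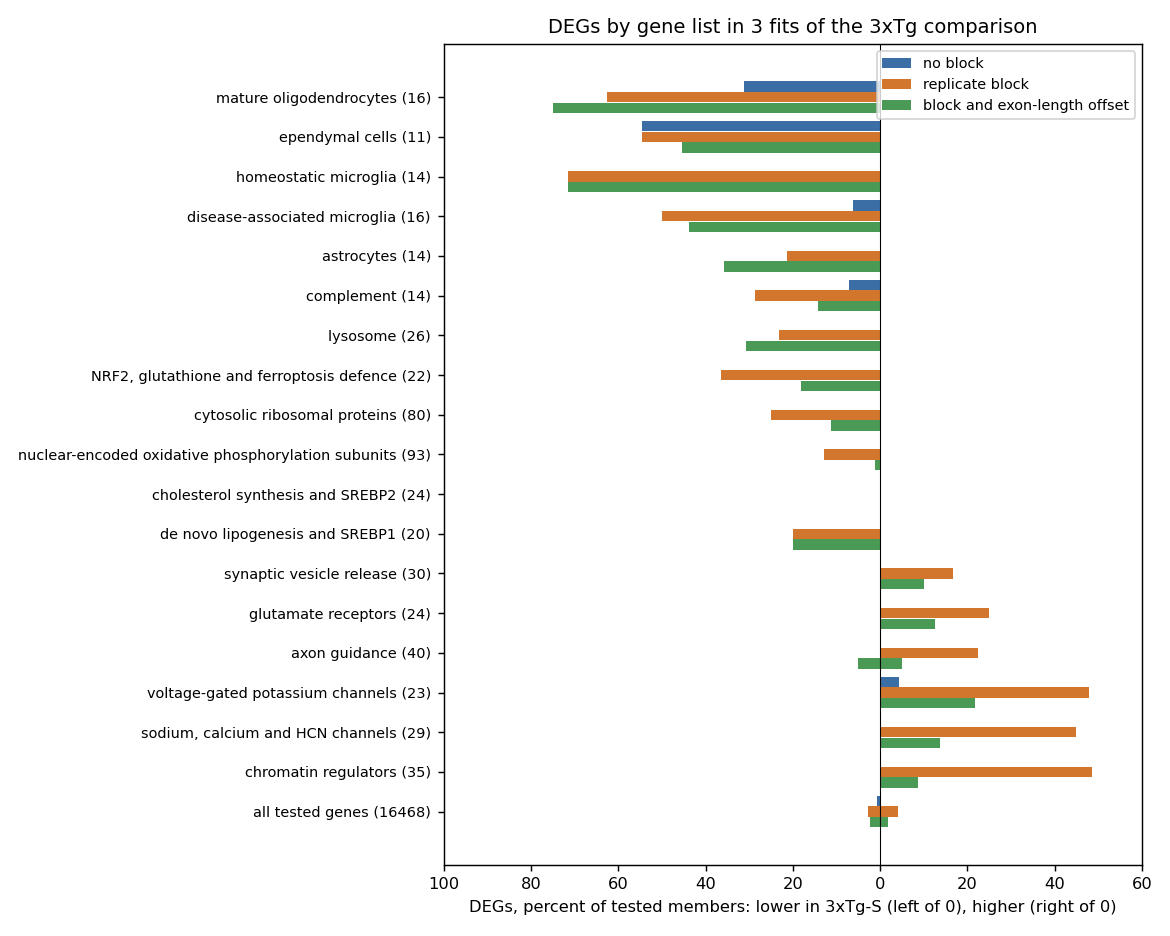
Share of the tested members of 18 gene lists and of all tested genes that were DEGs (x axis, percent, lower in 3xTg-S to the left of 0 and higher to the right) in the fits of the 3xTg comparison without the block, with the block, and with block and exon-length offset. Numbers in brackets are tested genes (16468 distinct symbols in all). Oligodendrocyte, microglial and ependymal shares with the block change little when the offset is added, and those of channels and chromatin regulators shrink. With the offset but no block, not shown, 3 oligodendrocyte, 5 ependymal, 0 homeostatic and 1 disease-associated microglial markers were DEGs.

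The genes with the smallest p without the block came from several systems. Npr3, the clearance receptor of natriuretic peptides, was at 33.4, 33.1, 34.8 and 36.8 CPM in 3xTg-D and 41.7, 42.5, 43.1 and 43.3 CPM in 3xTg-S. No mice overlapped, and the spread within groups was small. Npr3 rose by 0.30 ± 0.06 and stood at 0.15 in WT. Dbp, a clock output factor, was at 58.7, 57.4, 47.5 and 55.5 CPM and 45.9, 38.6, 36.3 and 40.2 CPM, without overlap, and fell by 0.45 ± 0.09, by as much with the block (adjusted p = 0.0226) and by 0.41 with the offset, while of 19 clock genes it and Ciart fell with the block. Txnip, which binds thioredoxin and follows glucose, was at 33.9, 43.6, 29.8 and 32.7 CPM and 26.5, 24.9, 23.1 and 18.3 CPM, without overlap, and fell by 0.60 ± 0.14. Hdc, which makes histamine, fell by 1.00 ± 0.21 from 2.25, 1.97, 1.91 and 1.63 CPM to 1.11, 1.05, 1.03 and 0.701 CPM, and again no mice overlapped. Lrrc8c, a subunit of volume-regulated anion channels, and Scube2, a secreted protein, rose by 0.30 ± 0.07 and 0.87 ± 0.22. Cntn4 and Lrfn5, adhesion proteins of axons and synapses, rose by 0.32 ± 0.09 and 0.24 ± 0.07.

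Atp6v0c, a proton pump subunit, was at 14.9, 15.4, 14.8 and 17.4 CPM in 3xTg-D and 42.5, 60.3, 61.6 and 14.9 CPM in 3xTg-S. Its processed copy Atp6v0c-ps2 was at 30.8, 37.4, 33.5 and 33.5 CPM and 11.6, 18.2, 17.8 and 27.2 CPM. In the 3 inhibitor mice where the gene was high the copy was low, and in 3xTg-S4 the gene was at the vehicle level. Reads of such near-identical sequences can be split between them by counting, so the opposite log2 fold changes (1.52 ± 0.34 and -0.85 ± 0.20) are uncertain. Blood transcripts differed between mice. Hbb-bs, a haemoglobin chain, was at 58.3, 35.3, 28.9 and 22.7 CPM and 93.8, 87.7, 27.8 and 23.4 CPM, highest in 3xTg-S1 and 3xTg-S2, and 3 of 7 tested erythroid genes rose with the block.

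In the WT mice the same inhibitor gave 31 DEGs (13 higher, 18 lower) without the block and 115 with it. The genotype by inhibitor interaction called 98 genes, none at an adjusted p of 0.05 or less. Of the genes described above, the interaction passed the unadjusted threshold and was lower in 3xTg for Cmtm5 (-0.60), P2ry13 (-0.72) and Acsf2 (-0.36), and higher for Lrrc8c (0.39), Scube2 (1.01) and Cntn4 (0.43). For Trf (WT -0.34, interaction -0.15 ± 0.23), Foxj1 (WT -0.49, -0.16 ± 0.23) and Pltp (WT -0.16, -0.21 ± 0.09) the WT value had the same sign and the difference between genotypes did not pass.

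Of the remaining lists, those of vessels and membranes held few calls. None of 11 fibroblast markers passed in any of the 3 fits, and of 11 markers of pericytes and smooth muscle the contractile genes Acta2 and Tagln fell with the block and none was a DEG with the offset. Gal3st1, which makes the sulfatide of myelin, fell with the block (-0.45 ± 0.15) among 20 sphingolipid genes, of which none passed with the offset (-0.39). In the neurogenesis list (13 tested), Hopx, which marks radial glia and astrocytes, fell (-0.42 ± 0.08 with the block) and Tbr1, a transcription factor of cortical neurons, rose (0.28 ± 0.08), both also with the offset. Of 17 receptor genes for GABA and glycine 1 rose with the block (Gabrb1) and of 24 postsynaptic scaffolds 2 did, with Shank2 still a DEG with the offset (0.18). Of 38 proteasome subunits 2 fell with the block and none was a DEG with the offset. Over all tested genes 4.17% rose and 2.71% fell with the block, so counts this small, here and above, say little about a list.

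Several of the genes named overlap another gene on the opposite strand, and the strand setting of the counting is not given in the sources used here, so reads of the partner could be included: Pltp with Ctsa, Dbp with Sphk2, Dnali1 with Gnl2, Cnp with Dnajc7, Rarres2 with Lrrc61 and Srebf1 with Rai1.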

How the data were processed

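The submitters deposited one table of raw counts per gene (unnormalized reads, 55335 genes and 4 alignment summary lines, which were left out). According to the study's methods and submitters' notes, single-end reads of poly(A) libraries were trimmed with Trimmomatic 0.35 and aligned and counted with STAR 2.5.1b on GRCm38; strand setting and removal of duplicate molecules are not given in the sources used here. Mice were grouped by their labels, and one mouse is one replicate. Counting error and mouse-to-mouse spread set the precision, and interval statements cover no more than these mice. edgeR 4.0.16 (R 4.3.3) quasi-likelihood tests with TMM scaling were run on the 8 3xTg mice, without and with replicate number as a block, after filtering over the 16 mice (count of at least 10, total of 15; 16475 genes). Log2 CPM used a prior count of 2. Exon lengths came from Gencode M21 (16466 tested genes), and the length offset was a spline with 4 degrees of freedom per mouse. DESeq2 1.42.0 and other settings were alternatives, and the code was tested on simulated data. DEGs had an unadjusted p of 0.01 or less, the threshold of the study. In edgeR, p-values were adjusted by Benjamini-Hochberg over all tested genes. DESeq2 adjusted them after its own filter on low mean counts, so its adjusted counts are not on the same basis. Of 53 gene lists, each contributes up to 4 members with the smallest block p and its highest member; the 10 higher and 10 lower genes of at least 1 CPM with the smallest p in each fit, the 5 with the smallest interaction p, the desaturases and checks of the transgenic background complete the named genes. Some of these genes are not reported here. Other genes were chosen after their values were seen. Members and lists were chosen with earlier results of these data known.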

Additional observations from a re-analysis of the deposited data

Results flagged for a closer look

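Values of single mice lay far from the rest of their group in 21 of 354 groups of 4 mice tested (the gap to the nearest mouse over the range of the group was above the critical value of Dixon at the 95% level), and chance alone would place about 1 in 20 groups there. Mouse 3xTg-D2 was highest in its group for Clec7a (0.955), C1qa (0.902), C1qb (0.921), B2m (0.914), Cd74 (0.990), H2-Aa (0.958), H2-Ab1 (0.949) and Ctsd (0.905), and for the mean log2 CPM of the lists of MHC class I (0.863), MHC class II (0.901) and inflammatory cytokines (0.882). The same mouse was lowest for Snap25 (0.839) and for the clustered protocadherins (0.844). Mouse 3xTg-D1 was highest for Cnp (0.967), Cfap126 (0.940) and Ccdc33 (0.837). Mouse 3xTg-S4 was lowest for Dnali1 (0.836), Cfap161 (0.856), Wdr49 (0.912) and the CA3 markers (0.850), and 3xTg-S1 was highest for the interferon response (0.915).

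For 14 genes of the text the effect of the inhibitor differed between 3xTg and WT mice at an unadjusted interaction p of 0.01 or less (edgeR), and none did at an adjusted p of 0.05 or less. The log2 interaction was negative for Acsf2 (-0.36), Cmtm5 (-0.60), Sntn (-1.60), Spag16 (-1.10), P2ry13 (-0.72), Slc38a3 (-0.34) and Atp6v0c-ps2 (-1.11). It was positive for Nr4a2 (0.44), Pdia4 (0.34), Lrrc8c (0.39), Scube2 (1.01), Cntn4 (0.43), Tbr1 (0.43) and Atp6v0c (2.16). Causes were not tested.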

How the results depend on the processing

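The number of 3xTg DEGs ranged widely, and the cause was not tested. Against 149, it was 1133 with the replicate block, 355 with no filter on low counts, 248 with all 16 mice in one fit (842 with the block) and 0 at an adjusted p. With the block it was 672 under the exon-length offset, 1229 under a GC offset, 770 under both, 708 with DESeq2 and 787 with the share of reads outside genes as a covariate. With the choroid plexus score as a covariate it was 53, and 232 with the block. Leaving out 1 mouse gave 68 to 802 (802 without 3xTg-S2, 272 without 3xTg-D4, 92 without 3xTg-D2, 88 without 3xTg-S3, 69 without 3xTg-D1 and 68 without 3xTg-S4), and 861 came without both mice numbered 2, a setting added after the data were seen. Leaving out 1 number gave 554 to 1512 with the block and, added later, 356 to 1130 with block and offset. Median-ratio scaling (148), DESeq2 without the block (166), the length offset alone (152) and a GC offset alone (160) stayed close to 149. The 204 genes at an adjusted p of 0.05 or less with the block became 245 under a GC offset, 7 with the share outside genes and, by edgeR, 0 under the length offset (2053 at an unadjusted 0.05) or with the choroid plexus score (1236).

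The WT count of 31 was 115 with the block, 180 with no filter, 20 with at least 10 counts in every mouse, 48 with all 16 mice (93 with the block), 130 with length offset and block and 0 at an adjusted p with or without the block. It was 22 to 516 without 1 mouse (516 without WT-S4) and 86 to 385 in the block without 1 number. The interaction count of 98 was 624 with the block, 208 with no filter, 0 at an adjusted p with or without the block, 56 to 487 without 1 mouse (487 without 3xTg-S2, 402 without WT-S4, 220 without 3xTg-D4, 58 without 3xTg-D2, 56 without 3xTg-S4) and 220 to 635 in the block without 1 number.

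Of 49 called genes named in the text, 48 were called with the block, 43 with the length offset, 43 with both, 45 with DESeq2, 20 with the choroid plexus covariate (9 with the block) and 30 to 43 without 1 mouse, and none changed sign in these. Among genes not called, Ttr was 1.34 with the choroid plexus covariate and block, and under length offset and block without number 2 Cd74 was 1.30 and App -0.16. Same-numbered mice were no established pairs, and 4 of the 8 mice correlated best with the mouse of their own number. Low counts limit the ciliary genes.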
